A study of Homo sapiens with 6 samples.

Results

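miR-205-5p, miR-203a-3p, miR-31-5p and miR-31-3p, microRNAs (miRNAs) of basal or stratified epithelium, were examined in small RNA libraries of KPL4, a human cell line established from a breast adenocarcinoma. The 4 were chosen by name, and all 4 are among the 2656 mature miRNAs listed and among the 783 abundant enough to test. Both groups were ERβ knockout cells, that is cells without estrogen receptor β (the product of ESR2). In 3 libraries the cells are labelled only as knockout, and in the other 3 as knockout with exogenous ERβ. ESR2 messenger RNA is not measured in small RNA libraries, so the labels could not be checked by it. All cells were grown in medium with serum, insulin and hydrocortisone, and no further treatment is labelled. No group is labelled as knockout cells with an empty vector. The sources used here do not say whether the lines were clones or whether replicates were separate cultures. The p-values therefore measure the spread between these libraries, which may be technical, and ERβ itself cannot be told apart from anything else that set the lines apart.

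A miRNA is cut from a hairpin, and the strand kept by Argonaute pairs with messenger RNAs mainly through its seed, bases 2 to 8. miR-205-5p marks the basal layer of skin, prostate and mammary gland, and it represses ZEB1 and ZEB2, which drive the loss of epithelial character. miR-203a-3p is the miRNA of the layers above, where it represses TP63 and helps cells leave the cell cycle and differentiate. miR-31-5p is abundant in proliferating keratinocytes and squamous tumours and is known in breast cancer for restraining metastasis. Its partner strand from the same hairpin is miR-31-3p.

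The mature sequences below show that the members do not form a seed family (RefSeq, GRCh38.p14, 5′ to 3′, seed in capitals):
miR-205-5p: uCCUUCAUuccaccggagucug
miR-203a-3p: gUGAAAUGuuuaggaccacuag
miR-31-5p: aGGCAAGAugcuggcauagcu
No seed is shared between them, and none of the 2370 distinct mature names in the RefSeq table has the same bases 2 to 8 as any of these 3. miR-31-3p had no entry in that table.

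The genes lie on 3 chromosomes. MIR205 lies on the plus strand of chromosome 1 (209432133 to 209432242) and overlaps exons of its host transcript MIR205HG. MIR31 lies on the minus strand of chromosome 9 (21512115 to 21512185) in an intron of MIR31HG, a long noncoding RNA. MIR203A lies on the plus strand of chromosome 14 (104117405 to 104117514) in no annotated host gene, 3.05 Mb beyond MIR656, at the far end of the imprinted miRNA cluster of that chromosome. The host annotation is GENCODE release 29 on GRCh38, which gives the hairpins the same coordinates as RefSeq.

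The 6 libraries held 10288413 to 14296900 counts. Knockout columns are called S1, S2 and 3 here, since the first pair carry the same number and are known by group only; those with ERβ are 1, 2 and 3. Library S2 stood apart: over the tested miRNAs, the chi-square per degree of freedom against the other knockout libraries was 307 and 331, compared with 14.8 between these others and 12.2 to 21.2 among the ERβ libraries. Results that rest on S2 are therefore given with and without it. Among all tested miRNAs 77 were higher and 104 lower with ERβ, at an adjusted p under 0.05 (quasi-likelihood test of edgeR, adjustment after Benjamini and Hochberg over all tested miRNAs). Without S2 there were 122 higher and 157 lower of 800 tested. Leaving out ERβ library 1, 2 or 3 gave 53, 52 and 49 higher and 58, 60 and 62 lower, and the replicate block 38 higher and 50 lower. These calls also depend on how libraries are scaled: upper-quartile factors gave 123 higher and 70 lower, and library totals 146 higher and 61 lower. The median log2 fold change of all tested miRNAs moved up by 0.11 and 0.15 under these scalings. Relative to that median, the log2 fold change was 0.54 for miR-205-5p, -0.24 for miR-203a-3p and 0.23 for miR-31-5p under each of the 3 scalings, and 0.31 to 0.32 for miR-31-3p. A scaling moves every miRNA and the median by nearly the same amount, so this likeness follows from the arithmetic and is no check of the calls.

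Levels are given as CPM, the usual count-per-library-size unit, here with library totals scaled by TMM factors. All members were present in all libraries, well above a floor of 3 counts. Together they made up 1.74 to 1.82% of counts in the knockout libraries and 2.05 to 2.20% in those with ERβ. miR-203a-3p ranked between 31 and 35 by count in the individual libraries, miR-31-5p between 44 and 53, miR-205-5p between 40 and 57, and miR-31-3p between 172 and 204. Counting error was small: the 95% Wilson interval of a library's share reached at most 0.921% of the value to either side for the 3 abundant members and 4.40 to 6.13% for miR-31-3p. These intervals cover counting error only. Levels of different miRNAs also carry the bias of adapter ligation, so ratios between miRNAs are compared across libraries and not read as numbers of molecules.

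With ERβ, miR-205-5p was higher and miR-203a-3p was lower, while both strands of miR-31 had higher means that did not pass the test. Thus 1 of 4 members rose, against 9.83% of all tested miRNAs, and 1 of 4 fell, against 13.3%. Without S2, 3 of 4 rose and 1 fell, against 122 and 157 of all 800 miRNAs tested there. With upper-quartile factors or library totals 3 of 4 rose and 0 fell, as miR-203a-3p no longer passed. Of all 783 tested miRNAs, 123 rose and 70 fell under the former scaling, and 146 rose and 61 fell under the latter. In 2 of 4, miR-205-5p and miR-31-5p, every ERβ library lay above every knockout library, as in 18.9% of tested miRNAs, and in 1 of 4, miR-203a-3p, every ERβ library lay below, as in 20.9%. With 4 members these shares are a description only.

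**Figure D1:**
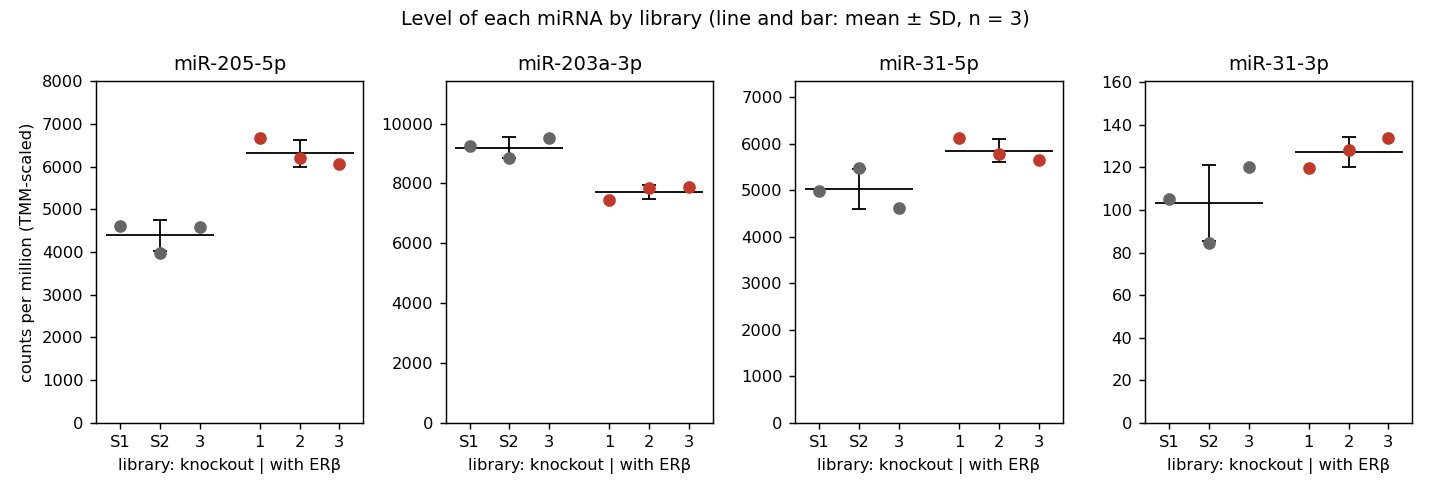
CPM (scaled by TMM factors, axes from 0) of each miRNA in the knockout libraries (grey) and the libraries with ERβ (red); the line and bar are the mean ± SD of 3 libraries. The ERβ libraries lie above the knockout libraries for miR-205-5p and miR-31-5p and below them for miR-203a-3p, and the groups touch for miR-31-3p.

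miR-205-5p, the basal-cell miRNA, was at 4605, 3973 and 4584 CPM in knockout libraries S1, S2 and 3. In ERβ libraries 1, 2 and 3 it was at 6671, 6206 and 6054 CPM. The groups were well separated, and the lowest knockout value was that of S2. The mean level went from 4387 ± 359 to 6310 ± 321 CPM (SD, n = 3 per group), a 1.44-fold rise. The log2 fold change was 0.52 ± 0.08 (SE; edgeR quasi-likelihood test, adjusted p = 0.00149). Without S2 it was 0.46, and it passed in all 15 alternatives, which gave 0.46 to 0.68 with adjusted p from 1.50e-08 to 0.0244. Of the 88 tested miRNAs averaging at least 1000 CPM, 7 rose and 24 fell, and of those 7 miR-205-5p had the largest log2 fold change. Among all tested miRNAs, 76.4% had a log2 fold change of its size or smaller in either direction.

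The hairpin of MIR205 is shown because both of its strands were counted (RefSeq, GRCh38.p14; capitals mark miR-205-5p and then miR-205-3p):
MIR205: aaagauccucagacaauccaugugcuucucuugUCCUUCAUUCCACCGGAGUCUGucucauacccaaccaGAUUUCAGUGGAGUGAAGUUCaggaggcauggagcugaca
miR-205-3p, the strand that is mostly discarded, had 117, 115 and 112 counts in knockout libraries S1, S2 and 3. It had 166, 208 and 233 counts in ERβ libraries 1, 2 and 3. Its mean went from 10.5 ± 0.951 to 14.9 ± 0.927 CPM, or 0.50 ± 0.13 as a log2 fold change (edgeR quasi-likelihood test, adjusted p = 0.0210). Both strands of the hairpin were therefore higher with ERβ, by similar factors. The call on miR-205-3p was lost under the replicate block (0.53, adjusted p = 0.112 in edgeR). It was also lost when S1 was left out (edgeR adjusted p = 0.0574), or the ERβ libraries 1 (0.0601) or 3 (0.10). The ratio of miR-205-5p to miR-205-3p counts, which no scaling can change, was 433, 418 and 402 in knockout libraries S1, S2 and 3 and 446, 446 and 384 in ERβ libraries 1, 2 and 3. These ranges overlap, and the ratio did not differ beyond their spread (exact two-sided permutation test, p = 0.80, where the smallest possible p is 0.10).

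miR-203a-3p, the differentiation miRNA, was the most abundant member in every library. It was at 9235, 8845 and 9518 CPM in knockout libraries S1, S2 and 3, and at 7445, 7851 and 7864 CPM in ERβ libraries 1, 2 and 3. The groups did not overlap, though the gap between them was narrow. The mean went from 9199 ± 338 to 7720 ± 238 CPM, or -0.25 ± 0.06 as a log2 fold change (edgeR quasi-likelihood test, adjusted p = 0.0202), which is 0.839 of the knockout level. The call, though not the sign, depended on the processing and on which libraries were used. It was lost with upper-quartile factors (-0.14, adjusted p = 0.129 in edgeR) and library totals (-0.10, 0.217), without a filter (-0.21, 0.146) and under the replicate block (-0.28, 0.124). It was also lost, with edgeR adjusted p-values of 0.0634 and 0.0679, without knockout library S1 or 3, and with 0.124, 0.105 and 0.0761 without ERβ library 1, 2 or 3. Without S2 it was kept (-0.28, 1.11e-05). The sign was negative in all 15 alternatives. With any library left out the log2 fold change was -0.28 to -0.20. Its SE was 0.07 to 0.08 where leaving out a library lost the call, against 0.06 with all 6 libraries. As a share of all counts, which uses no factors, it was at 0.856, 0.875 and 0.881% in the knockout libraries and at 0.803, 0.822 and 0.820% with ERβ, so the groups did not overlap on that scale either.

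MIR203A has an antisense twin, and the mature sequences from the opposite strand are shown because they overlap the same bases (RefSeq, GRCh38.p14, 5′ to 3′, seed in capitals):
miR-203b-5p: uAGUGGUCcuaaacauuucaca
miR-203b-3p: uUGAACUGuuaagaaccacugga
The 86 bases of the MIR203B hairpin (chromosome 14, 104117418 to 104117503, minus strand) are the reverse complement of part of MIR203A, and miR-203b-5p covers 21 of the 22 positions of miR-203a-3p on the other strand. miR-203b-5p had 0 counts in all 6 libraries, while miR-203a-3p had 82630 to 117466. miR-203b-3p had 2 to 11 counts per library and miR-203a-5p, the partner strand, 0 to 4, and none of these 3 was abundant enough to test. Output of this locus was thus almost wholly miR-203a-3p in both groups.

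miR-31-5p was at 4976, 5475 and 4611 CPM in knockout libraries S1, S2 and 3. It was at 6125, 5785 and 5650 CPM in ERβ libraries 1, 2 and 3. The groups did not overlap, but S2, its highest knockout library, came close to the lowest library with ERβ. The mean was 5021 ± 433 CPM without and 5853 ± 245 CPM with ERβ. The log2 fold change, 0.22 ± 0.08 (95% interval 0.04 to 0.40), did not pass (edgeR quasi-likelihood test, unadjusted p = 0.0205, adjusted p = 0.0754). It passed without S2 (0.29, edgeR adjusted p = 3.19e-05), with upper-quartile factors (0.33, 0.0193), with library totals (0.38, 0.0197), without a filter (0.27, 0.0294) and with a filter of 10 CPM in 3 libraries (0.26, 0.0393). All 15 alternatives gave a positive value, from 0.16 to 0.38.

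The hairpin of MIR31 shows where miR-31-5p sits (RefSeq, GRCh38.p14, minus strand; capitals mark miR-31-5p):
MIR31: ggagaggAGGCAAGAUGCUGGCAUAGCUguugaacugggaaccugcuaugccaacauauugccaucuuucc
miR-31-3p, from the other arm, was at 105, 84.5 and 120 CPM in knockout libraries S1, S2 and 3 and at 120, 128 and 134 CPM in ERβ libraries 1, 2 and 3. Knockout library 3 lay at the level of ERβ library 1, so the groups overlapped. The mean was 103 ± 17.9 CPM without and 127 ± 7.01 CPM with ERβ, or 0.30 ± 0.13 as a log2 fold change (95% interval 0.01 to 0.59) that did not pass (edgeR quasi-likelihood test, adjusted p = 0.132). It passed with upper-quartile factors (0.42, edgeR adjusted p = 0.0407), with library totals (0.46, 0.0171), without a filter (0.35, 0.0336), without S2 (0.18, 0.0396) and without knockout library 3 (0.42, 0.0440).

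The strands of miR-31 stood in unequal ratios among the knockout libraries. miR-31-5p outnumbered miR-31-3p by 47.2, 64.8 and 38.4 to 1 in S1, S2 and 3, and by 51.1, 45.1 and 42.2 to 1 in ERβ libraries 1, 2 and 3. S2 had the highest ratio of all 6 libraries, with the highest miR-31-5p and the lowest miR-31-3p among the knockout libraries. The mean ratio was 50.1 ± 13.4 without and 46.1 ± 4.52 with ERβ (mean log2 difference -0.09, exact two-sided permutation p = 0.80). Without S2 the mean log2 difference was 0.11. No change in strand choice was detectable with 3 libraries per group.

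Ratios between members within a library do not depend on any scaling factor. miR-205-5p stood to miR-203a-3p at 0.499, 0.449 and 0.482 in knockout libraries S1, S2 and 3, and at 0.896, 0.790 and 0.770 in ERβ libraries 1, 2 and 3. The ratio of miR-205-5p to miR-203a-3p was thus higher in every library with ERβ than in any knockout library. The mean log2 difference was 0.78, and 0.71 to 0.82 with any library left out. The ratio of miR-31-5p to miR-203a-3p was 0.539, 0.619 and 0.484 without and 0.823, 0.737 and 0.718 with ERβ, again without overlap (mean log2 difference 0.48). The order of miR-205-5p and miR-31-5p differed between the groups: their ratio was 0.925, 0.726 and 0.994 in the knockout libraries, all below 1, and 1.09, 1.07 and 1.07 in those with ERβ, all above 1. In knockout library 3 the pair were nearly level. Each of these 3 ratios had an exact two-sided permutation p of 0.10, the smallest that 3 against 3 allows, and 0.167 after Benjamini-Hochberg adjustment over the 5 ratios computed, so none can reach 0.05 by this test. Apart from the ratio of the miR-31 strands, the ratios were chosen after the counts were seen.

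**Figure D2:**
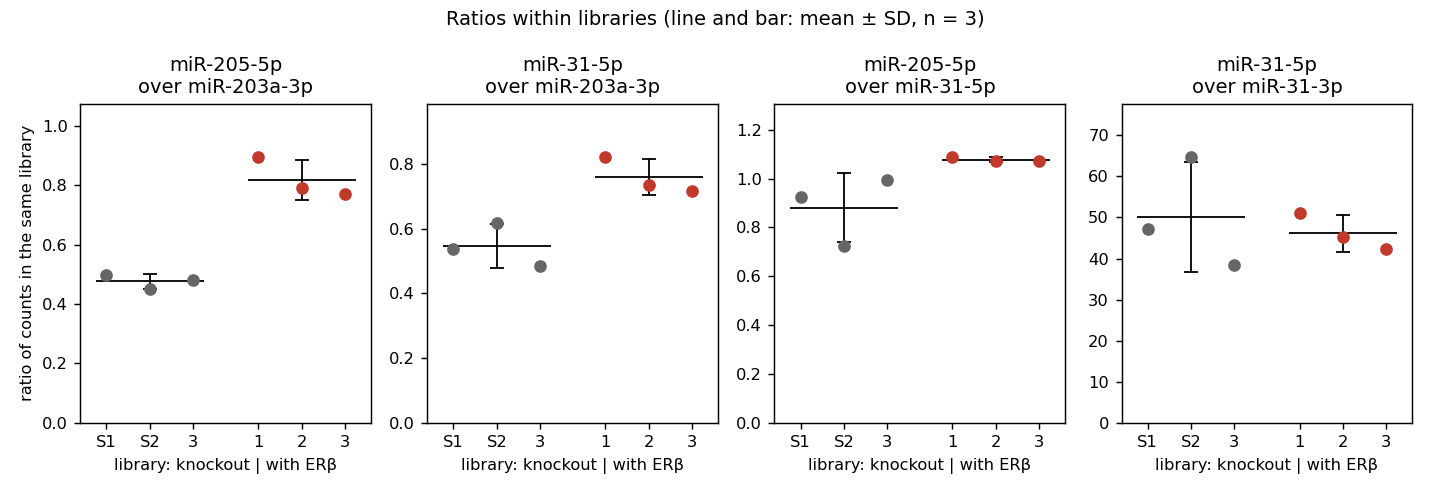
Ratio of the counts of a pair of miRNAs within each library (axes from 0) in knockout libraries (grey) and libraries with ERβ (red), with the mean ± SD of 3 libraries. The groups are apart in the first 3 panels and overlap for the strands of miR-31, where knockout library S2 is highest at 64.8.

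**Figure D3:**
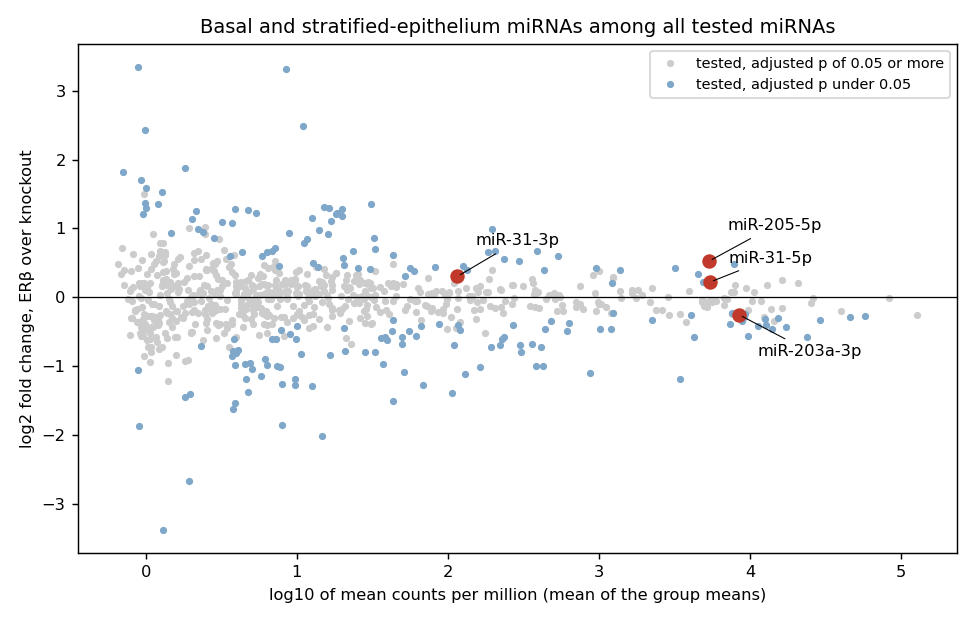
Log2 fold change, ERβ over knockout, against the log10 of mean CPM for the 783 tested miRNAs (blue: adjusted p under 0.05; grey: the rest), with the 4 members in red. The 3 abundant members lie at the right, with miR-205-5p above 0 at 0.52 and miR-203a-3p below at -0.25.

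Across the 6 libraries the log2 levels of miR-205-5p and miR-203a-3p ran opposite to each other (Pearson r = -0.89), as did those of miR-31-5p and miR-203a-3p (-0.95). The strands of miR-31 had r = 0.18. All correlations given here include the difference between the groups, describe 6 libraries only and were not computed without S2. Of 389 other miRNAs averaging at least 10 CPM, those most like miR-205-5p were miR-217-5p, miR-376c-3p and miR-411-5p (r = 0.99, 0.98 and 0.98), which had larger log2 fold changes of 1.18, 1.30 and 1.32. Those most like miR-203a-3p were miR-199b-5p, miR-199a-3p and miR-338-3p (r = 0.99, 0.98 and 0.98), with -0.80, -0.69 and -1.09. miR-31-5p was most like miR-326, miR-107 and miR-149-5p (r = 0.97, 0.97 and 0.96), and miR-31-3p most like miR-32-3p, miR-570-3p and miR-374b-5p (r = 0.99, 0.97 and 0.97).

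Other miRNAs of epidermis and stratified epithelium are set beside the members next, and each list's calls are to be read against 9.83% higher and 13.3% lower among all tested miRNAs. Of 12 stratified-epithelium miRNAs 8 were tested, 1 was higher (miR-205-3p, described above) and 3 were lower, with a median log2 fold change of -0.26 against -0.01 for all tested miRNAs. miR-184, a miRNA of cornea and epidermis, fell from 26.1 ± 3.45 to 15.3 ± 0.409 CPM (-0.77 ± 0.13; edgeR adjusted p = 0.00226). miR-24-3p, which takes part in keratinocyte differentiation, fell from 8411 ± 494 to 6398 ± 86.4 CPM (-0.39 ± 0.07), and miR-34c-5p, of a p53-induced family, from 64.6 ± 8.73 to 45.9 ± 1.47 CPM (-0.49 ± 0.12). miR-184 kept its call in 15 of 15 alternatives, miR-24-3p in 13 and miR-34c-5p in 9. miR-944, encoded in an intron of TP63, was near the limit of the assay at 1.35 ± 0.462 CPM without and 1.39 ± 0.0356 CPM with ERβ. Leaving out S1, or either of ERβ libraries 1 and 3, left 0 higher, and leaving out S2 gave 5 lower. Among all tested miRNAs 62 of 813 were higher without S1, 53 of 811 without ERβ library 1 and 49 of 800 without ERβ library 3. Without S2, 157 of 800 were lower. Under the replicate block 0 of the list were higher and 1 lower, against 38 and 50 of all 783 tested miRNAs.

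miRNAs tied to basal-like breast cancer moved both ways: of 8 listed and tested, 4 were higher (against 9.83% of all tested miRNAs) and 2 lower (against 13.3%), with a median log2 fold change of 0.36 against -0.01. miR-18a-5p rose from 159 ± 27.5 to 252 ± 8.23 CPM (0.67 ± 0.13; edgeR adjusted p = 0.00445), while miR-222-3p (-0.37 ± 0.07) and miR-221-3p (-0.34 ± 0.08) fell. miR-18a-5p and the other risers miR-17-5p and miR-20a-5p come from the same cluster, so the 4 are not independent. The fourth, miR-934, went from 2707 ± 420 to 3631 ± 63.9 CPM (0.42 ± 0.11). Without S2 the log2 fold changes were 0.53 for miR-18a-5p, 0.30 for miR-934, -0.35 for miR-222-3p and -0.42 for miR-221-3p. Upper-quartile scaling left 1 lower, and scaling by totals 0. Leaving out any ERβ library left 1 higher. Leaving out S1, or either of ERβ libraries 1 and 3, left 1 lower, and leaving out ERβ library 2 left 0. Calls among all tested miRNAs also changed: upper-quartile scaling gave 70 lower and totals 61 lower, of 783. Without ERβ library 1, 2 or 3, 53 of 811, 52 of 808 and 49 of 800 were higher, and 58, 60 and 62 lower. Without S1, 81 of 813 were lower.

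Luminal and general epithelial miRNAs were present beside the basal ones. Of 8 luminal miRNAs 1 was higher (against 9.83% of all tested) and 3 lower (against 13.3%), with a median of -0.18. miR-375-3p, the best known of them, fell from 279 ± 23.0 to 188 ± 17.3 CPM (-0.57 ± 0.10; edgeR adjusted p = 0.00320) and miR-26a-5p by a log2 fold change of -0.40 ± 0.08, while miR-149-5p rose from 191 ± 26.7 to 282 ± 19.0 CPM (0.56 ± 0.11). Of the 5 general epithelial miRNAs, the miR-200 family that represses ZEB1 and ZEB2 with miR-205-5p, 0 were higher and 2 lower, against the same 9.83 and 13.3% of all tested, with a median of -0.25. miR-200c-3p went from 13861 ± 1060 to 11150 ± 187 CPM (-0.31 ± 0.07), with miR-141-3p at -0.33 ± 0.09 and miR-200b-3p, which did not pass, at -0.25 ± 0.09. With all 6 libraries the rest of the family did not pass: miR-429 was at 0.07 ± 0.09 (edgeR adjusted p = 0.612) and miR-200a-3p at -0.01 ± 0.10 (0.956). For miR-200a-3p, S2 was the lowest library at 21913 CPM, against 28419 and 28513 CPM in S1 and 3 and 25636 to 26985 CPM with ERβ. Without S2 miR-200b-3p passed (-0.35, edgeR adjusted p = 4.8e-07). Upper-quartile scaling left 0 of the epithelial miRNAs lower, and scaling by totals gave 1 higher and 0 lower. Leaving out S2 gave 4 lower, leaving out S1 or knockout library 3 left 1, and leaving out any ERβ library left 0. Among all tested miRNAs 157 of 800 were lower without S2, 81 of 813 without S1 and 88 of 815 without knockout library 3. Without ERβ library 1, 2 or 3, 58 of 811, 60 of 808 and 62 of 800 were lower.

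**Figure D4:**
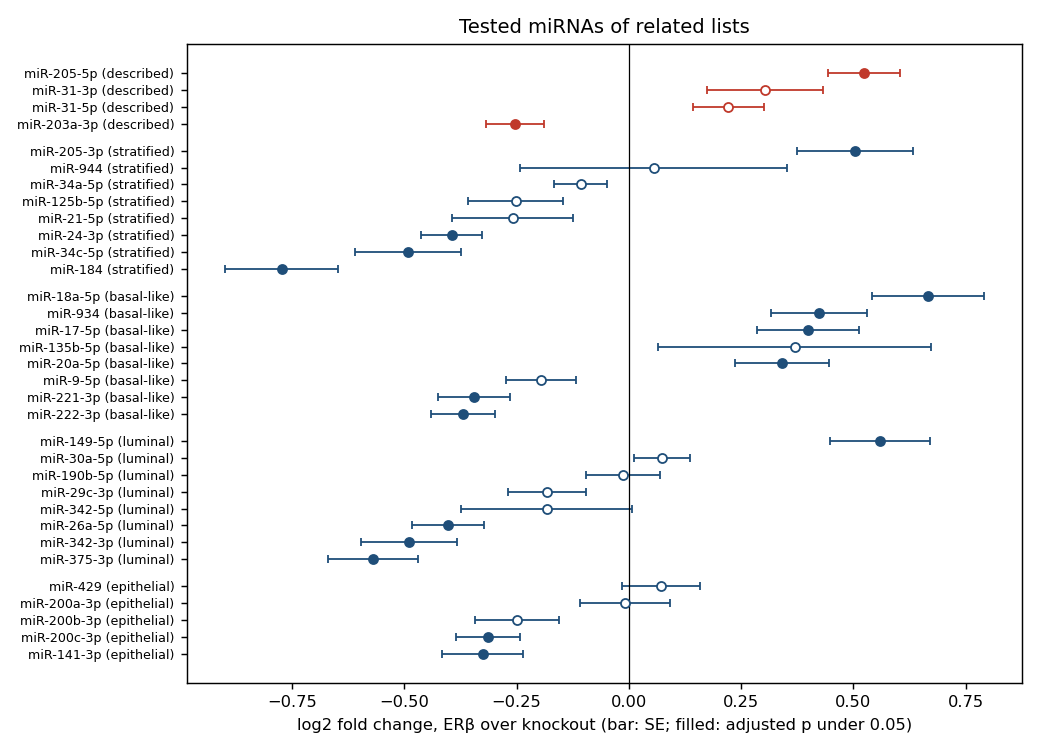
Log2 fold change, ERβ over knockout, of the 4 members (red) and of the tested miRNAs of the 4 related lists (blue), with bars of 1 standard error and filled points where the adjusted p was under 0.05. miR-205-5p lies at 0.52 and its partner strand at 0.50, while the 3 filled points among the other stratified-epithelium miRNAs lie below 0, as do both filled epithelial points.

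Markers of other cell types were measured beside these values. All samples are labelled as KPL4 cells and no other cell type is labelled, so these levels are not read as numbers of cells. Of 6 stromal and endothelial markers 4 were tested, 0 were higher and 3 lower, against 9.83% and 13.3% of all tested miRNAs. Their summed level was 16788 to 17258 CPM in the knockout libraries and 13248 to 14411 CPM with ERβ. Nearly all of it was miR-126-3p (16794 ± 224 and 13687 ± 581 CPM, log2 fold change -0.30, edgeR adjusted p = 0.00795). Its call was lost with upper-quartile factors (-0.18, edgeR adjusted p = 0.0525), library totals (-0.14, 0.0951) and the replicate block (-0.31, 0.0939), and without ERβ library 1 (-0.23, 0.0746) or 2 (-0.26, 0.0701). miR-145-5p had 6 counts or fewer in every library and none in ERβ library 3. The 5 blood markers summed to 13.5 to 18.7 CPM without and 14.1 to 17.0 CPM with ERβ, with 0 of 2 tested called. The 3 muscle markers summed to 3.06 to 4.37 and 0.473 to 1.27 CPM, with miR-1-3p the only tested and lower, and miR-206 at 0 in 4 of 6 libraries. Their part in the differences of the basal miRNAs was not tested.

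**Figure D5:**
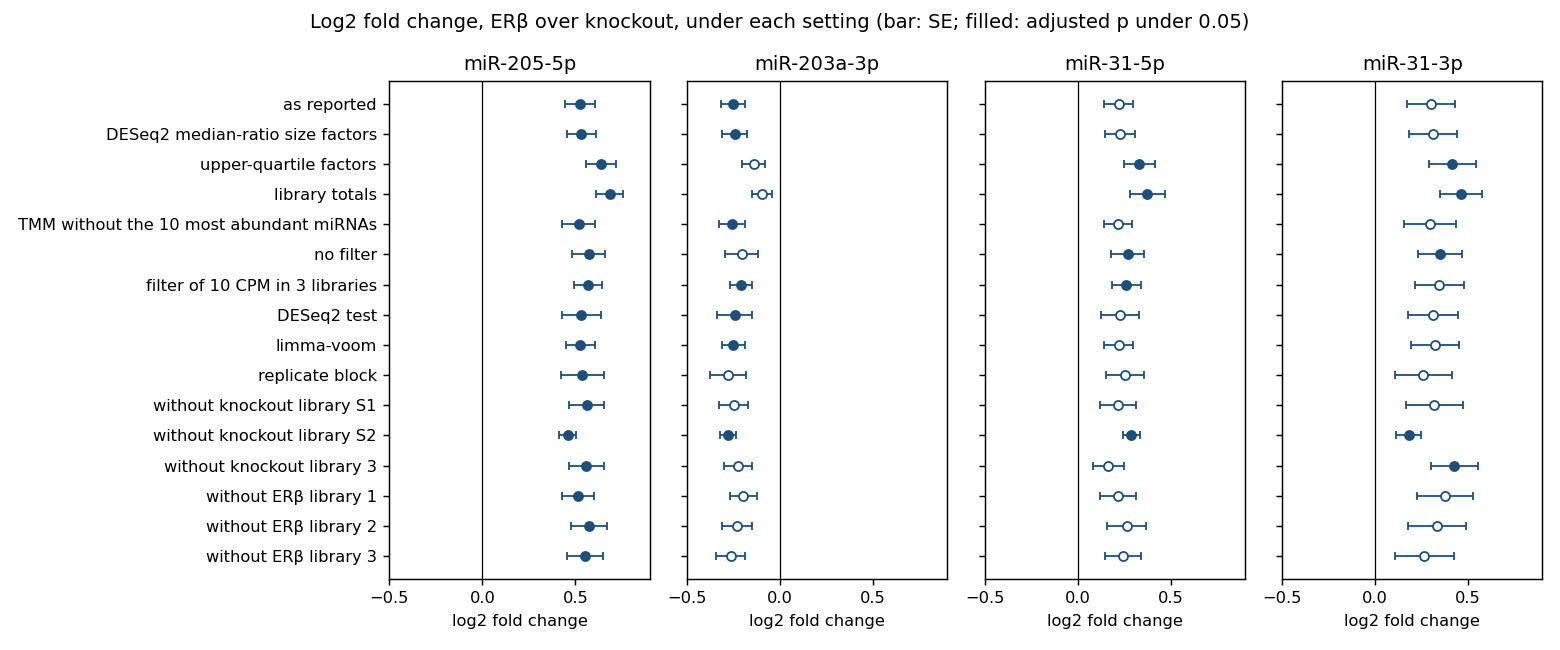
Log2 fold change, ERβ over knockout, of the 4 members as reported and under 15 alternatives, with bars of 1 standard error and filled points where the adjusted p was under 0.05. miR-205-5p is filled throughout (0.46 to 0.68), miR-203a-3p stays below 0 and is filled in 6 of 15 alternatives, and both strands of miR-31 stay above 0 and are filled in 5 of 15.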

How the data were processed

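The authors deposited expected counts for each mature miRNA. Between 6.33 and 7.27% of a library's values were fractional, none of them a member's. Libraries came from a QIAseq miRNA kit, per the labels' protocols. FastQC, Trim Galore and GRCh38 are named per the submitters' processing notes. Aligner, counter, miRNA release and UMI handling: not given in the sources used here. Rounded counts were tested in edgeR 4.0.16 (R 4.3.3) after filterByExpr, with TMM factors, a robust quasi-likelihood fit without covariates and Benjamini-Hochberg adjustment over 783 miRNAs at 0.05. The procedure was tested on simulated data. Standard errors were derived from F and the log2 fold change. Besides the members, the text names the other strands of their hairpins, up to 3 miRNAs of each list by smallest adjusted p, and the 3 most alike by log2 CPM (prior count 2). miR-944, miR-934, miR-17-5p, miR-20a-5p, miR-429, miR-200a-3p and single markers were named after their values were seen. Members and lists were chosen with earlier results of these data known. Alternatives were 4 scalings, 2 filters, the DESeq2 1.42.0 test, limma-voom (limma 3.58.1), a replicate block and each library left out. Sequences come from RefSeq (GRCh38.p14), where 3 of 4 members matched. Figures were drawn with matplotlib 3.10.9.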

Additional observations from a re-analysis of the deposited data

How the results depend on the processing

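The direction of each of the 4 members was the same in all 15 alternatives, and miR-205-5p passed in each. With upper-quartile factors the log2 fold changes of miR-203a-3p, miR-31-5p and miR-31-3p were -0.14, 0.33 and 0.42, with 123 of all tested miRNAs higher, 1 basal-like miRNA lower, 2 luminal higher and 0 epithelial lower. With library totals they were -0.10, 0.38 and 0.46, with 146 higher and 61 lower, 0 basal-like lower, 2 luminal higher, 1 epithelial higher and 0 lower. Without a filter they were -0.21, 0.27 and 0.35; with 10 CPM in 3 libraries, which tested 399 miRNAs, miR-31-5p was at 0.26 and 66 miRNAs were lower. A scaling moves every miRNA by nearly the same amount, and beyond that the cause of these shifts was not tested.

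The replicate block used the numbers in the column names, where 2 knockout columns carry the number 1 and ERβ library 2 has no partner. That library then adds nothing to the comparison of the groups, so a call lost under the block cannot show that pairing matters. The block left miR-203a-3p at -0.28 and not passing, with 38 higher and 50 lower among all tested miRNAs. By list, 0 stratified-epithelium miRNAs were higher and 1 lower, 1 basal-like higher and 0 lower, 1 luminal lower and 0 epithelial lower. Deviations of same-numbered libraries correlated at -0.10, 0.13 and 0.12, and those of the other 6 pairs at -0.10 to 0.08. These correlations cannot decide whether the numbers mark pairs, since 2 knockout columns carry the number 1. The numbers were not treated as pairs because the labels do not say that a number marks a shared culture, day or batch. Shared handling by number was not tested further.

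With each library left out in turn, miR-203a-3p ranged from -0.28 to -0.20, miR-31-5p from 0.16 to 0.29 and miR-31-3p from 0.18 to 0.42. All calls ranged from 49 to 122 higher and 58 to 157 lower, the highest of both without S2; by list, stratified-epithelium from 0 to 1 higher and 2 to 5 lower, basal-like from 1 to 4 higher and 0 to 3 lower, and epithelial from 0 to 4 lower. For the 3 abundant members, counting error was smaller than the spread between libraries of a group.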

Other observations

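MIR31 has few miRNA neighbours. The only other hairpin within 1 Mb that gave tested miRNAs was that of miR-491, 795.9 kb away on chromosome 9; it was looked at for its position, after the values were seen. miR-491-5p was at 14.6 ± 2.44 CPM without and 10.97 ± 1.25 CPM with ERβ (log2 fold change -0.42, edgeR adjusted p = 0.0917), and miR-491-3p at 8.81 ± 0.694 and 10.5 ± 1.91 CPM (0.25, 0.332). Neither strand passed, and their signs differed. Within the same distance of MIR205 no miRNA was tested, and within that of MIR203A none either.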
